A study of Homo sapiens with 6 samples.

Results

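The HSP90 chaperones and the co-chaperones that work with them were followed in cells labelled HCT-116, an established human colorectal carcinoma line, given the compound coded AAPK or the vehicle DMSO. The list has 10 genes, taken by name and chosen with earlier results of these data known. It holds the chaperones HSP90AA1, HSP90AB1 and TRAP1 and the co-chaperones AHSA1, STIP1, CHORDC1, CDC37, PTGES3, FKBP4 and FKBP5. Of these, 9 were named by at least 1 probe set that names a single gene symbol, with 28 such probe sets among the 44988 of the array and 9 of its 18132 genes. The level of AHSA1 was not analysed here. Total RNA was hybridised to 6 Affymetrix arrays, 3 from AAPK cells and 3 from DMSO cells. The labels describe every sample, DMSO included, as high in Aurora-A and PLK-1, the mitotic kinases that the series title names as the compound's targets. The treatment text, the same on all samples, gives 10 µM and 48 h, and the 10 µM is read here as the dose of AAPK. The comparison asks how the compound changes gene expression. Levels are the deposited log2 signals, and every difference is a log2 signal in AAPK minus that in DMSO.

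HSP90 proteins are dimeric chaperones that use ATP to bring kinases, steroid receptors and other client proteins to a mature form. HSP90AA1 encodes the stress-inducible cytosolic form, HSP90AB1 the constitutive cytosolic form, TRAP1 the mitochondrial form and HSP90B1, which is not on the list, the form of the endoplasmic reticulum. Co-chaperones select the clients and set the pace of the cycle: STIP1 (HOP) links HSP70 to HSP90, CDC37 delivers kinases, PTGES3 (p23) holds the closed state, and the immunophilins FKBP4 (FKBP52) and FKBP5 (FKBP51) sit in steroid receptor complexes. Several of these genes are known targets of heat shock factor 1, which binds alternating GAA and TTC boxes called heat shock elements. FKBP5 is instead known as a glucocorticoid-induced gene.

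Promoter windows of the listed genes were searched for heat shock elements, that is for 3 alternating boxes, spelled GAANNTTCNNGAA or TTCNNGAANNTTC on the strand read, and for 2 alternating boxes, GAANNTTC or TTCNNGAA; each match of 3 boxes also holds matches of 2. RefSeq windows of 250 bases before to 50 after an annotated start (GRCh38.p14) were used for 9 of the 10 listed genes, all but FKBP4, 15 windows in all. Windows of CHORDC1, HSP90AA1 and HSP90AB1 held 3 boxes, a pattern found in 172 of all 35116 windows (0.490%). The 250 bases before the start are shown for these, 5′ to 3′ on the gene's strand, with the stretches covered by 3 boxes in capitals. CHORDC1 is at chr11:90223050-90223299 (minus strand), HSP90AA1 at chr14:102087045-102087294 (minus strand) and HSP90AB1 at chr6:44247693-44247942 (plus strand).
CHORDC1: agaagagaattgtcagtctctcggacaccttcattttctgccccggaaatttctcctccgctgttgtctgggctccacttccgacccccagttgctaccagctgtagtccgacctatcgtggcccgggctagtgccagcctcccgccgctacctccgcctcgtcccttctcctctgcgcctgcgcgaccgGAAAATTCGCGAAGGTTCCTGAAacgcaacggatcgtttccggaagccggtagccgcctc
HSP90AA1: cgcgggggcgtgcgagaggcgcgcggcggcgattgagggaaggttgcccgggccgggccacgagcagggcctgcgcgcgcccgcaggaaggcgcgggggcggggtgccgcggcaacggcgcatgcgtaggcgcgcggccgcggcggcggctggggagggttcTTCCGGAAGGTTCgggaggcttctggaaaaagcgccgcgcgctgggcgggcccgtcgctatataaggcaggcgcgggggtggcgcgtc
HSP90AB1: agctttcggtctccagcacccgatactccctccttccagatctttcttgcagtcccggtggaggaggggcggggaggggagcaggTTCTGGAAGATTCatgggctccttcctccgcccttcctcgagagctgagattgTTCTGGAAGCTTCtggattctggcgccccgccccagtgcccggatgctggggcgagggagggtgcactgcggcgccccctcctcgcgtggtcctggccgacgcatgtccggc
In CHORDC1 overlapping matches ran from 60 to 38 bases before its only start. HSP90AA1 had its match 88 to 76 bases before the second of 2 annotated starts, which lies 52705 bases downstream of the first. HSP90AB1 had a match 165 to 153 and another 112 to 100 bases before the third of 3 starts, which lies 1749 bases downstream of the first. In the second window of STIP1 a match of 2 boxes lay 14 to 21 bases after the start; 2 boxes occur in 4737 of all windows (13.5%). No match of either kind was in the windows of AHSA1, CDC37, FKBP5, PTGES3 and TRAP1. A match describes these letters and does not show binding.

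**Figure D1:**
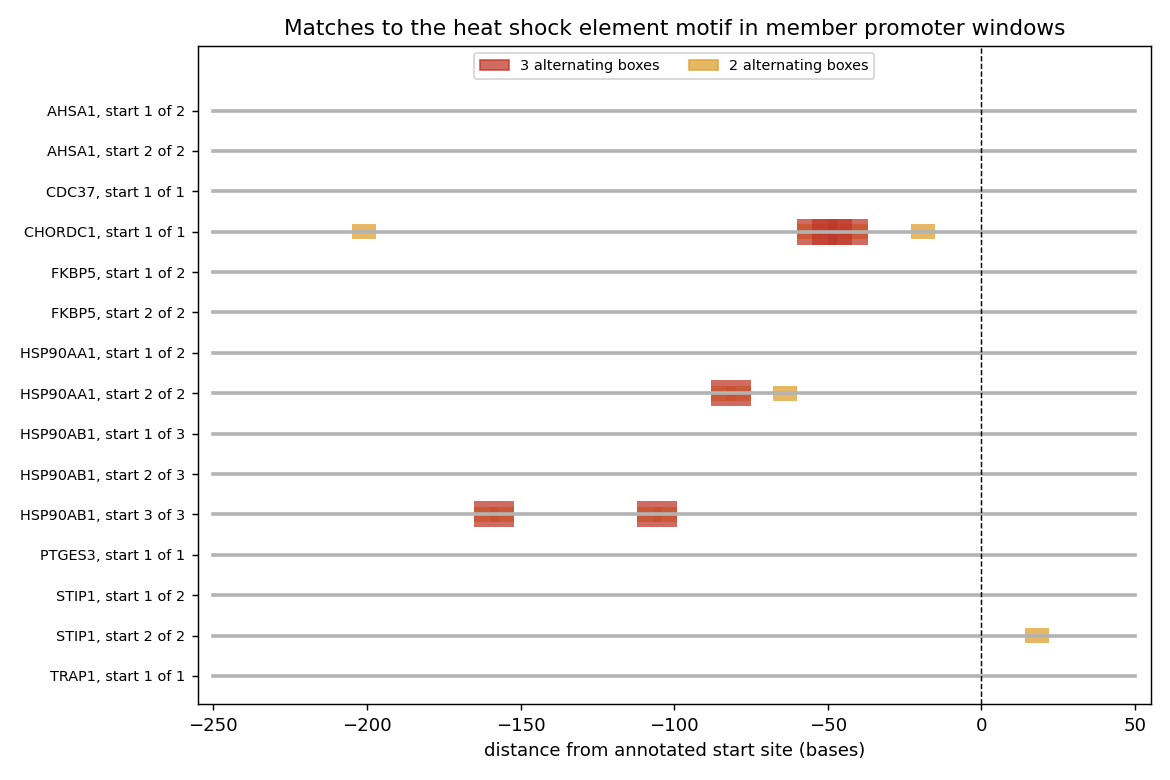
Matches to the heat shock element motif in the 15 promoter windows. The x axis is the distance from the annotated start in bases, each grey line is a window, tall red blocks mark 3 alternating boxes and short orange blocks mark 2. Red blocks are seen in CHORDC1, in the second window of HSP90AA1 and in the third window of HSP90AB1.

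The arrays were alike in scale, with median log2 signals of 6.46 to 6.47 in AAPK and 6.48 to 6.50 in DMSO and Pearson correlations over all probe sets of 0.9976 to 0.9983 within groups and 0.9942 to 0.9954 between groups. Of 8 epithelial markers measured in the cells labelled HCT-116, 2 lay above the median gene, the keratins KRT8 and KRT18, at 10.4 to 12.1 over 8 probe sets of KRT8 and 12.3 to 12.6 over 2 of KRT18. Among the other 6, EPCAM and CDH1 (E-cadherin), which HCT-116 is known to express, were at 3.20 to 3.52 over 3 probe sets and 3.96 to 5.15 over 2, near the bottom of the 2.83 to 14.25 that the arrays span. VIM, vimentin, chosen after its values were seen, was at 12.1 to 12.6. These values go against the label in part, on AAPK and DMSO arrays alike. KRT8 passed the limma test described below as higher in AAPK, and no other epithelial marker passed. Above the median gene also lay 3 of 4 measured endothelial, 2 of 4 blood and 0 of 6 fibroblast markers. Lying above it thus does not by itself mark a cell type here. None of 14 measured fibroblast, endothelial and blood markers passed, and 1 had an unadjusted p under 0.05. Of 102 control probe sets, 3 passed: large-subunit ribosomal RNA was higher in AAPK by 0.56 at its 5′ part and 0.51 at its middle, and small-subunit RNA was lower at its 3′ end, at -0.41. The 3′ part of the large-subunit RNA was at -0.13 and the 5′ and middle parts of the small-subunit RNA at -0.06, and none of these passed. The part of the ribosomal RNA values in the results below was not tested.

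Of the 9 measured members 6 were higher in AAPK cells, with STIP1 and CHORDC1 in front, both cytosolic HSP90 genes behind them, and FKBP4 and PTGES3 with smaller rises. FKBP5 was the member that fell, and TRAP1 and CDC37 did not pass. These calls were made on each gene's brightest probe set with limma's moderated test (Benjamini-Hochberg over 18132 genes, adjusted p under 0.05, n = 3 per group). Over all genes, 8.11% passed as higher, 7.26% as lower and 15.4% in either direction. The median log2 change was 0.29 over the 9 members and -0.02 over all genes. For 7 of 9 members the AAPK and DMSO arrays did not overlap, against 31.9% of all genes. As the members were chosen with earlier results known, these shares only describe them and do not test the list. No label states whether a group's 3 samples came from separate cultures. The p-values then speak of the spread among these samples alone, and it may be technical. Arrays of bulk RNA also cannot tell a change in RNA per cell from a change in the share of cells that carry it.

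**Figure D2:**
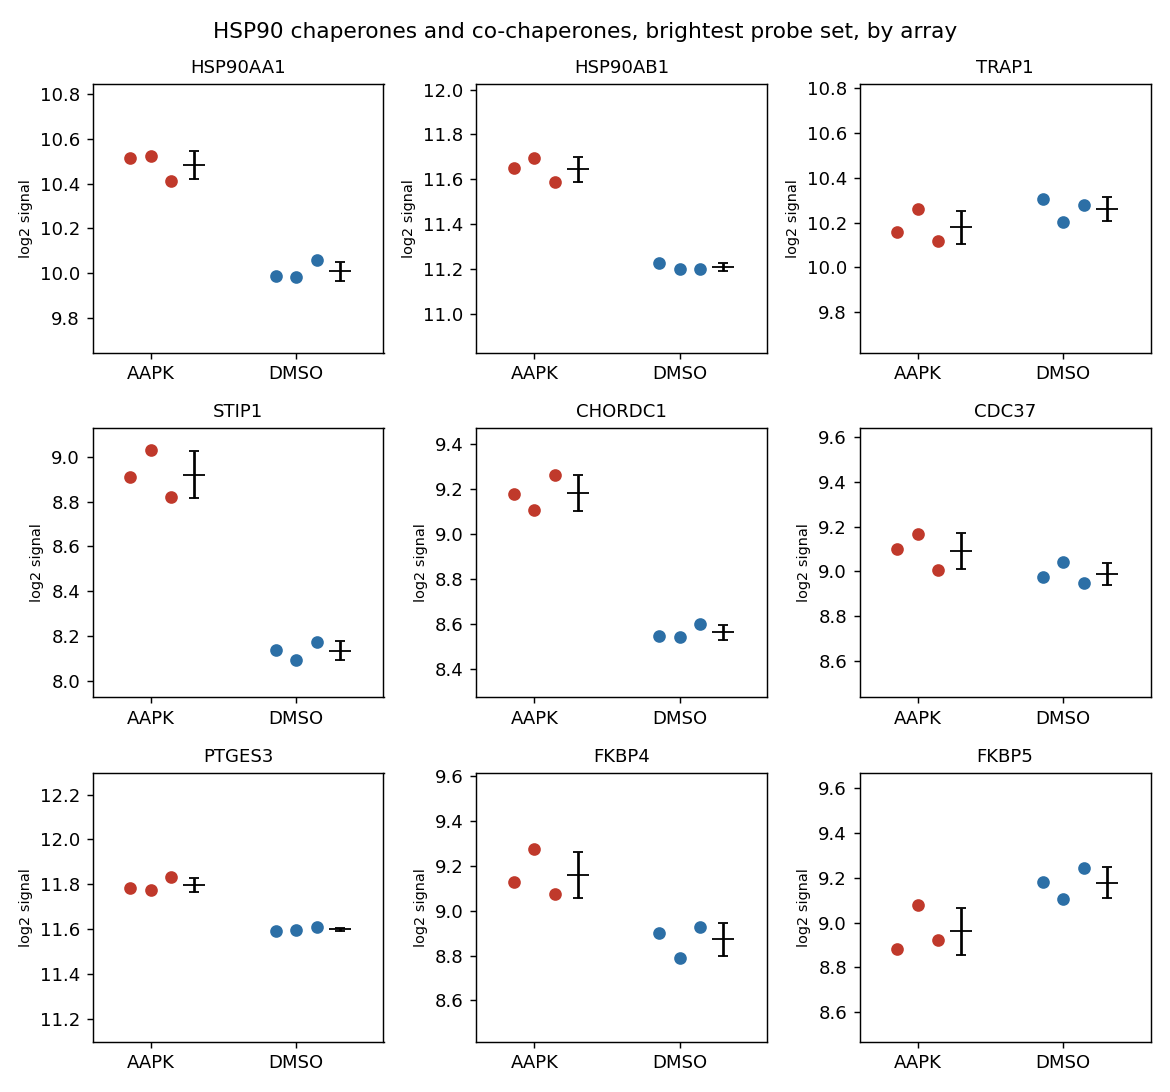
Log2 signal of the 9 measured members on each array, by the brightest probe set, with AAPK arrays in red on the left and DMSO arrays in blue on the right of each panel. Points are arrays and bars are mean ± SD (n = 3); every panel spans the same number of log2 units. The groups are apart in 7 panels and overlap in those of TRAP1 and CDC37.

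Both cytosolic HSP90 genes rose by similar amounts. HSP90AA1, the stress-inducible form, had log2 signals of 10.52, 10.52 and 10.41 on the AAPK arrays, against 9.99, 9.98 and 10.06 on the DMSO arrays. All AAPK arrays lay above all DMSO arrays, with 0.35 between the nearest values. The change was 0.47 ± 0.05 (SE), or 1.39-fold (limma adjusted p = 1.58e-04). Its other probe set, dimmer at 7.77 to 7.83 in AAPK and 7.23 to 7.35 in DMSO, gave 0.49. HSP90AB1, the constitutive form, had 11.65, 11.70 and 11.59 in AAPK, against 11.23, 11.20 and 11.20 in DMSO. Again the groups did not overlap, and the nearest values were 0.36 apart. The change was 0.44 ± 0.05, or 1.35-fold (limma adjusted p = 1.66e-04). HSP90AB1 was named alone by 1 probe set.

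The difference between the HSP90AA1 and HSP90AB1 signals, taken array by array, averaged -1.16 in AAPK and -1.20 in DMSO, and these overlapped. The paralogs' changes thus differed by 0.04 ± 0.03 (SE; 95% interval -0.05 to 0.13), which did not pass (two-sided exact permutation p = 0.3; 3 arrays against 3 cannot go below 0.1). The interval allows a somewhat larger rise of either gene.

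The organelle forms did not follow the cytosolic ones past the test. TRAP1, the mitochondrial HSP90, had 10.16, 10.26 and 10.12 in AAPK, against 10.30, 10.20 and 10.28 in DMSO. The groups overlapped, and its single probe set had a change of -0.08 (95% interval -0.20 to 0.03, limma adjusted p = 0.363). HSP90B1, the endoplasmic reticulum form, had 12.50, 12.48 and 12.52 in AAPK, against 12.44, 12.47 and 12.47 in DMSO. Its AAPK arrays lay just above the DMSO arrays, but the change of 0.04 (95% interval -0.05 to 0.13) did not pass (limma adjusted p = 0.628). None of its 7 probe sets passed, with changes from -0.08 to 0.15. As a description chosen after these values were seen, the change of HSP90AA1 exceeded that of TRAP1 by 0.56 ± 0.04 (SE) and that of HSP90B1 by 0.44 ± 0.05, taken array by array, and neither difference overlapped between groups.

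STIP1, the adaptor that holds HSP70 and HSP90 together, had the largest change of the members. Its log2 signals were 8.91, 9.03 and 8.82 in AAPK, against 8.14, 8.09 and 8.17 in DMSO. The nearest AAPK and DMSO values were 0.65 apart. The change was 0.79 ± 0.06 (SE), or 1.72-fold (limma adjusted p = 1.69e-05), which ranked 15 among the 18132 genes ordered from the largest rise. The other probe set, at 8.81, 8.90 and 8.71 in AAPK and 8.17, 8.19 and 8.14 in DMSO, rose 1.56-fold, by 0.64.

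CHORDC1, a protein with cysteine- and histidine-rich CHORD domains that binds HSP90, followed. Its brightest probe set had 9.18, 9.11 and 9.26 in AAPK, against 8.54, 8.54 and 8.60 in DMSO. The groups were 0.51 apart at their nearest values. The change was 0.62 ± 0.05 (SE), or 1.54-fold (limma adjusted p = 3.64e-05), and ranked 40 among all genes ordered from the largest rise. Of its 8 probe sets, 6 rose, by 0.58 to 0.75, with no overlap between the groups. The remaining 2 had changes of -0.02 and -0.01, with overlapping arrays; their means in DMSO were 3.62 and 5.77. The probe set that rose most was dimmer in DMSO than the second of these, with 6.03, 5.75 and 6.18 in AAPK and 5.16, 5.11 and 5.43 in DMSO.

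CDC37, the adaptor for kinase clients, had 9.10, 9.17 and 9.01 in AAPK, against 8.97, 9.04 and 8.95 in DMSO. The groups overlapped on its single probe set. The change was 0.10 (95% interval -0.02 to 0.22) and did not pass (limma adjusted p = 0.258).

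PTGES3, the p23 protein that stabilises the closed HSP90 dimer and is also named for a prostaglandin E synthase activity, had a small rise with little spread. Its log2 signals were 11.78, 11.77 and 11.83 in AAPK, against 11.59, 11.60 and 11.61 in DMSO. The groups did not overlap, and the change was 0.20 ± 0.04 (SE), or 1.15-fold (limma adjusted p = 0.0106). All 4 of its probe sets rose, by 0.20 to 0.21. Each of them had its AAPK arrays above its DMSO arrays.

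The large immunophilins had changes in opposite directions, though the call on FKBP5 was lost under 7 of 15 alternatives. FKBP4, which is known to promote steroid receptor activity, had 9.13, 9.27 and 9.07 in AAPK, against 8.90, 8.79 and 8.93 in DMSO. The groups did not overlap, with 0.14 between the nearest values. The change was 0.29 ± 0.06 (SE), or 1.22-fold (limma adjusted p = 0.0104), and 0.14 when its 3 probe sets were averaged. A second probe set had 8.14, 8.19 and 8.13 in AAPK and 8.01, 8.03 and 7.96 in DMSO, a change of 0.15 that did not pass over all probe sets (limma adjusted p = 0.0578). The third, at 4.22 to 4.34 in AAPK and 4.27 to 4.29 in DMSO, was at -0.01.

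FKBP5, which is known to restrain the glucocorticoid receptor, had 8.88, 9.08 and 8.92 in AAPK, against 9.18, 9.11 and 9.24 in DMSO. The groups did not overlap, but AAPK replicate 2 and DMSO replicate 2 were 0.03 apart. The change was -0.22 ± 0.06 (SE; limma adjusted p = 0.0376), and FKBP5 was 1.16-fold lower in AAPK. This call was lost with median centring of the arrays (-0.20, adjusted p = 0.0616), with its probe sets averaged (-0.15, adjusted p = 0.0568), and without AAPK replicate 1 (-0.18, adjusted p = 0.138), AAPK replicate 3 (-0.20, adjusted p = 0.106), DMSO replicate 1 (-0.21, adjusted p = 0.102) or DMSO replicate 3 (-0.18, adjusted p = 0.115). All 6 of its probe sets had changes below 0, from -0.33 to -0.03, and 2 of them passed. The lowest was at 5.97, 6.07 and 5.86 in AAPK, against 6.31, 6.15 and 6.42 in DMSO.

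The difference between the FKBP4 and FKBP5 signals, taken array by array, was 0.15 to 0.25 in AAPK and -0.32 to -0.28 in DMSO. The groups did not overlap, and FKBP4 moved up relative to FKBP5 by 0.50 ± 0.03 (SE; 95% interval 0.42 to 0.59). The two-sided exact permutation p was 0.1, the smallest that 3 arrays against 3 allow, and 0.2 after adjustment over the 2 pairs compared. The difference thus did not pass, and with this number of arrays it could not have. The difference was 0.29 with each gene's probe sets averaged.

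Counted over all 28 probe sets of the members, 16 rose, 2 fell and 10 did not pass, when limma was run on all 44988 single-symbol probe sets with adjustment over them. Of all probe sets, 7.13% rose and 5.82% fell. AAPK arrays lay above DMSO arrays for 17 of the 28 and below for 3, against 14.3% and 15.2% of all probe sets (29.6% in either direction). The probe sets that rose belong to CHORDC1 (6), PTGES3 (4), HSP90AA1 (2), STIP1 (2), HSP90AB1 (1) and FKBP4 (1), and those that fell to FKBP5. Probe sets of a gene share its transcript and are not independent.

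**Figure D3:**
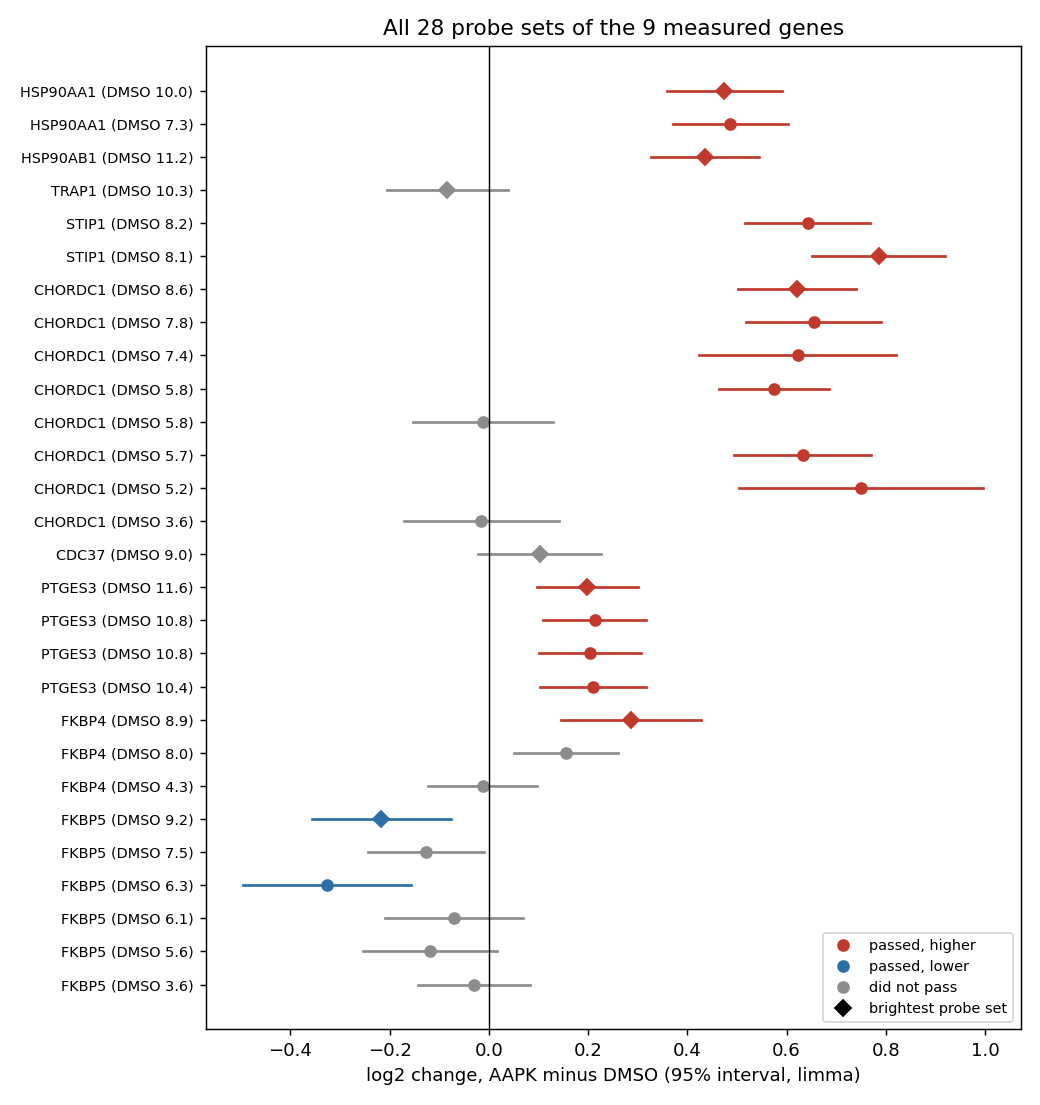
Log2 change, AAPK minus DMSO, of the 28 probe sets of the 9 measured members, with limma's 95% interval on the x axis and the mean DMSO log2 signal in each row's label. Red marks probe sets that rose, blue those that fell and grey those that did not pass; diamonds are the brightest of each gene. Those of CHORDC1 lie between 0.58 and 0.75, apart from 2 at about 0, and all 6 of FKBP5 lie left of 0.

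Within groups the same arrays were often the highest or lowest. Among the AAPK arrays, replicate 2 was highest for 7 of the 9 members and replicate 3 was lowest for 6. CHORDC1 and PTGES3 went the other way, with replicate 3 highest and replicate 2 lowest. Among the DMSO arrays, replicate 3 was highest for 6 and replicate 2 lowest for 6. The AAPK arrays spread over 0.06 (PTGES3) to 0.21 (STIP1) log2 units, and the DMSO arrays over 0.01 (PTGES3) to 0.14 (FKBP4). For each of the 9 members the range was wider in AAPK than in DMSO, a difference that was not tested. The order and range of arrays were not counted over all genes, so these counts do not set the members apart.

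Other genes of the pathway were counted from lists chosen with earlier results of these data known, each without the members. Over all genes 8.11% passed as higher and 7.26% as lower, 15.4% in either direction. The shares of the lists that passed ran from 0% to 56.5%. Those of the prostaglandin synthesis genes (11.1%), the R2TP and TTT genes (16.7%) and the kinase clients (21.4%) lay nearest to that of all genes. The further co-chaperones and regulators had 26.1%, and the receptor and transcription factor clients 26.7%. Glucocorticoid receptor targets had 29.4%, and mitochondrial chaperones and proteases 33.3%. Counts at an unadjusted p have no share over all genes beside them here. Of 23 measured further HSP90 co-chaperones and regulators, 4 rose and 2 fell, with a median change of 0.08. SUGT1, an HSP90 co-chaperone with a CS domain, as CHORDC1 has, rose by 0.53, with 0.32 on its other probe set. NUDC, a nuclear distribution protein with a p23-like domain, rose by 0.26, and FKBPL, an FKBP-like protein, fell by 0.28. Of 12 R2TP and TTT genes, which serve the assembly of large kinases and polymerases with HSP90, 1 rose and 1 fell: RUVBL1, an AAA+ ATPase, by 0.23, and TTI1, whose change was -0.19. The call on TTI1 was lost without any 1 of AAPK replicates 2 and 3 and DMSO replicates 1, 2 and 3. The number of R2TP and TTT genes that passed was 4 with genes under the 25th percentile of signal left out, 5 with those under the median left out, 5 with an intensity trend, and 1 by each gene's most variable probe set or without DMSO replicate 1 or 2. Among 11 other FKBP genes none passed limma's threshold (2 had an unadjusted p under 0.05, both upward), and their median change was 0.07; 1 passed without AAPK replicate 3, with probe sets averaged, or by the most variable probe set. Of 9 prostaglandin synthesis genes 1 rose, the phospholipase PLA2G4A, by 0.66, and 2 passed under 6 of the alternatives, quantile normalisation and leaving out DMSO replicate 2 among them.

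Kinase client genes did not move as a block, while the receptor and transcription factor clients that passed all fell. Of 28 measured kinase clients 5 rose and 1 fell, with a median of 0.00. The gene that fell was CDK4, the G1 kinase, by 0.41, and the largest rises were those of TBK1, a kinase of innate immune signalling, by 0.40, and IGF1R, a growth factor receptor, by 0.23. The call on IGF1R was lost under 6 of 15 alternatives. These were leaving out AAPK replicate 1, 2 or 3 or DMSO replicate 1, quantile normalisation (0.20, limma adjusted p = 0.0636) and averaging its probe sets (0.11, limma adjusted p = 0.0756). The number of kinase clients that passed was 2 without AAPK replicate 1, 3 without DMSO replicate 1 and 10 by each gene's most variable probe set. Of 15 receptor and transcription factor clients 0 rose and 4 fell (0 and 4 at an unadjusted p under 0.05 in limma), with a median of -0.08. The changes in this list ran from -0.46 to 0.03. RARA, a retinoic acid receptor, fell by 0.46 on its brightest probe set, but its 9 others lay between -0.09 and 0.02. NR3C2, the mineralocorticoid receptor, fell by 0.35 on a dim probe set, with 0.01 on the other, and PPARG, a lipid-sensing receptor, fell by 0.31. The smallest of the 4 falls was that of NR3C1, the glucocorticoid receptor, at -0.16 (limma adjusted p = 0.0360). Its 9 other probe sets lay between -0.15 and -0.02. With probe sets averaged 2 of the 15 passed. HSF1, the main heat shock factor, was at -0.08 (95% interval -0.18 to 0.03) and did not pass (limma adjusted p = 0.370).

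Glucocorticoid receptor targets, the class to which FKBP5 belongs, were mixed, with 2 of 17 higher and 3 lower and a median of -0.02. TSC22D3 (GILZ), a glucocorticoid-induced leucine zipper protein, had 8.78 to 8.91 in AAPK, against 9.89 to 9.92 in DMSO, and fell by 1.04. ERRFI1, a feedback inhibitor of the EGF receptor, fell by 0.94, whereas the kinase gene SGK1 rose by 0.38. By each gene's most variable probe set 3 of the 17 passed.

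Other heat shock factor targets had the highest share of calls among these lists, 13 of 23 higher and 0 lower (15 and 0 at an unadjusted p under 0.05 in limma), with a median of 0.42. HSPA1B and HSPA8, the inducible and constitutive HSP70 genes, rose by 1.94 and 1.29, and DNAJA1, an HSP40 co-chaperone, by 0.92. Of 9 HSPA8 probe sets 1 was at -0.05, and HSPA1B has a near-identical copy whose RNA its probe set may read. STIP1, at 0.79, lay below these in size of change. The list did not rise as a whole. Among its 10 genes that did not pass were HSPB1 at 0.26, HSPA6 at 0.03, CRYAB at 0.01, ZFAND2A at -0.06 and DNAJB1 at -0.07. Among 18 mitochondrial chaperones and proteases, the compartment of TRAP1, 4 rose and 2 fell, with a median of 0.08. Both HSPE1 and HSPD1 (HSP60) stand in this list and in that of the heat shock factor targets. HSPE1, the HSP10 partner of HSP60, rose by 0.58 and counts among the rises of both lists, while the nucleotide exchange factors of mitochondrial HSP70 split: GRPEL2 fell, at 8.75 to 8.80 in AAPK against 9.69 to 9.84 in DMSO, with -0.49 on its other probe set, and GRPEL1 rose by 0.32.

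**Figure D4:**
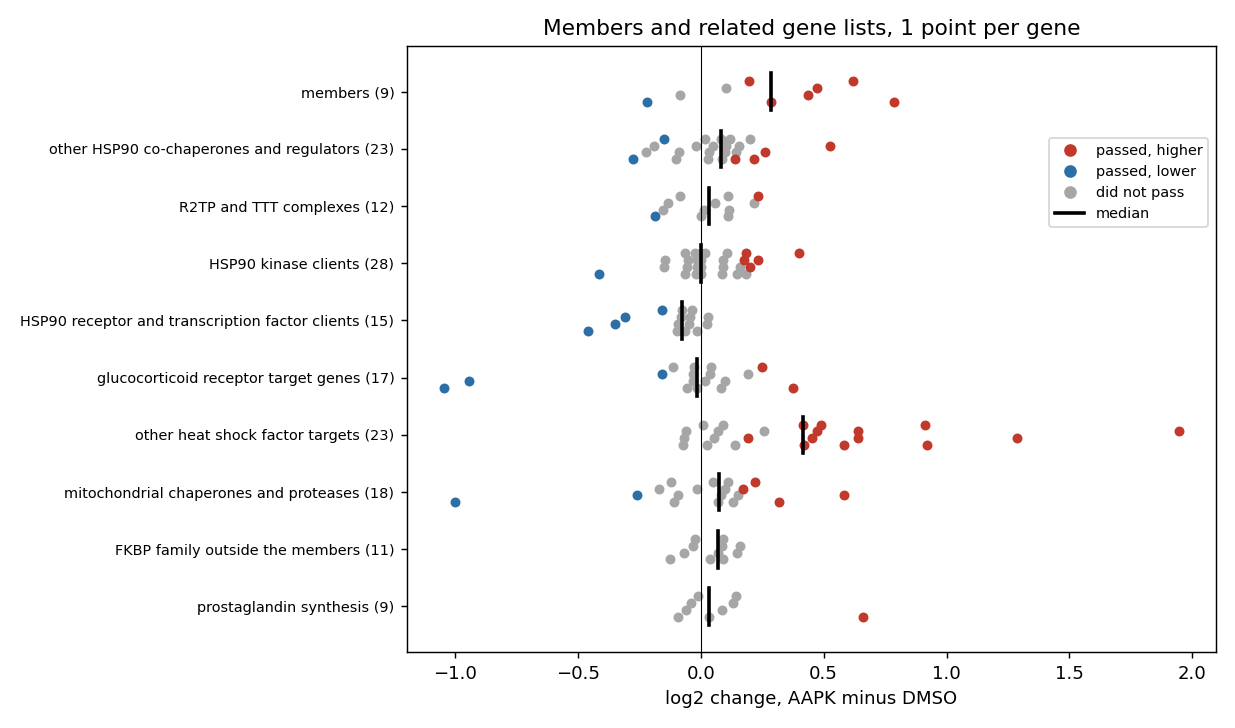
Log2 change, AAPK minus DMSO, on the x axis for the 9 members (top) and 9 related gene lists, with 1 point per gene by its brightest probe set and the number of genes in parentheses. Red and blue points passed as higher and lower, grey points did not pass, and black bars are medians. The medians of the members and of the other heat shock factor targets lie at 0.29 and 0.42, and those of the remaining lists between -0.08 and 0.08.

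Set against the promoter windows shown above, the 3 members with 3 alternating boxes all rose. So did STIP1, with 2 boxes after its start, and PTGES3, with neither. Of the other measured members with neither, CDC37 and TRAP1 did not pass and FKBP5 fell. FKBP4, the remaining member that rose, is not part of this comparison. Over all 14425 measured genes with a window, 8.73% rose. Of the 78 genes other than the members whose windows held 3 boxes, 7 rose (8.97%) and 3 fell, with a median change of -0.02. HSPA8 and DNAJA1 were among the 7. Of the 2137 genes other than the members whose windows held 2 boxes, 172 rose (8.05%) and 151 fell, with a median change of -0.01. These genes were grouped by motif after their values were seen, and no test was made.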

How the data were processed

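Total RNA, extracted with Trizol and labelled with biotin by in vitro transcription per the labels' protocols, was measured on 6 Affymetrix arrays. The authors deposited log2 signal values for 49395 probe sets. That they are log2 was read from their range, and that they had been normalised was inferred from nearly equal array medians. How background, normalisation and probe summary were handled is not stated in the sources used here. Changes are therefore read as relative to the bulk of genes.

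Gene symbols came from the platform's probe table. Controls (102), 1832 naming several symbols and 2473 naming none were left out, and the brightest probe set over all 6 arrays stood for each gene. Differences were tested two-sided with limma 3.58.1 under R 4.3.3 (moderated linear models with a group term), run over 18132 genes and, separately, 44988 probe sets, with Benjamini-Hochberg adjustment and a threshold of 0.05; the fit was tested on simulated data. Replicates came from the sample titles. Arrays limit precision by their number, 3 per group. Members and lists were chosen with earlier results of these data known. Named by rule were the members, HSP90B1, HSF1 and up to 3 genes per list with the largest change past the threshold. NR3C1 and some heat shock factor targets that did not pass were named outside this rule. Sequences are RefSeq's (GRCh38.p14). Alternatives covered normalisation, signal filters, probe set choice, variance model, array weights, the replicate number as a block and leaving out each array.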

Additional observations from a re-analysis of the deposited data

Results flagged for a closer look

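A probe set outside the gene comparison, naming both HSP90AB1 and its pseudogene HSP90AB3P, was higher in AAPK than in the DMSO controls. Its log2 signals were 11.87, 11.87 and 11.81 in AAPK, against 11.41, 11.45 and 11.39 in DMSO, and the groups did not overlap. The change was 0.43 ± 0.05 (SE; limma adjusted p = 2.82e-04 over 49293 probe sets, of which 12.7% passed), beside 0.44 on the probe set that names HSP90AB1 alone. Which of the copies it reads was not tested.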

How the results depend on the processing

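Each member kept its direction under the alternatives run, and the calls on HSP90AA1, HSP90AB1, STIP1, CHORDC1, PTGES3 and FKBP4 were kept under all 15; the call on FKBP5 was lost under 7 of 15. With 3 arrays per group, calls near the threshold rest on single arrays. Members called numbered 6 or 7, and member probe sets called 13 to 19 (13 to 18 leaving out 1 array), against 18. Genes called ranged from 1921 to 3468 (1921 to 2450 leaving out 1 array), against 2788. The difference between HSP90AA1 and HSP90AB1 ran from 0.02 to 0.07, and that between FKBP4 and FKBP5 from 0.29 to 0.61. Same-numbered arrays did not deviate together (correlations of 0.03, -0.20 and -0.03 for replicates 1, 2 and 3). With the replicate block 2099 genes and 6 members were called, and FKBP5 (-0.22, adjusted p = 0.0854) and TTI1 (-0.19, adjusted p = 0.0600) did not pass. For the 23 genes outside the members that were named by rule, 329 of 343 values kept direction and side of the threshold. The other 14 lost the call, those of TTI1, IGF1R and RARA. Over all genes the median change was -0.02, against 0.00 with median centring and -0.01 with quantile normalisation. The variance and weight settings do not enter the paralog differences, and the probe set rules do not enter the probe set counts, so these were not run.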
